A study of Mus musculus with 6 samples.

Results

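Messenger RNA of 10 genes that mark macrophages was followed in the whole testis at postnatal day 9, in 3 libraries from Ppp6r3 cKO mice and 3 libraries from wild-type (WT) mice. The 10 genes were taken by symbol from the 54532 genes of the deposited table: the surface receptors Csf1r, Adgre1, Mrc1 and Trem2, the signalling adaptor Tyrobp, the lysosomal and secreted proteins Cd68 and Lyz2, and C1qa, C1qb and C1qc, which encode the chains of complement C1q. They were listed for what they mark, with earlier results of these data known. The protein that Ppp6r3 encodes is a regulatory subunit of protein phosphatase 6, and cKO is a conditional knockout. Neither the Cre driver, the deleted exons nor the strain is given in the sources used here, and neither is whether each library came from its own animal. The p-values therefore rest on differences among libraries of a group, which may be only technical. The title of the series concerns mRNA translation in differentiating spermatogonia, so genes of the interstitial macrophages lie outside the germ cells that it names.

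Macrophages of the testis lie in the interstitium among the Leydig cells and on the surface of the tubules around the spermatogonia. Their survival depends on CSF1R, the receptor for the growth factors CSF1 and IL-34, and they clear dead cells and debris. C1q is unusual among complement proteins in being made chiefly by macrophages rather than by the liver. Its chains A, B and C assemble into a bouquet that binds antibodies and dying cells, and with the proteases C1r and C1s it forms C1, which starts the classical complement pathway. TREM2 is a receptor for lipids that has no signalling tail of its own and signals through the adaptor DAP12, the product of Tyrobp.

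Values are given as FPKM, which divides the fragments of a gene by its exon length and by the size of the library. Whole fragments could be recovered from their steps, which gave library sizes of 15970908 to 16606868 fragments. The recovered fragments summed to 101.34% to 103.15% of these sizes, with the highest share in Ppp6r3 cKO replicate 1. The targeted gene was at 15.8, 15.3 and 14.9 FPKM in Ppp6r3 cKO libraries, against 20.8, 21.3 and 21 FPKM in WT libraries (log2 fold change -0.45, limma adjusted p = 0.000698), which is a level of the whole tissue and not of the cells in which the gene was deleted. Testis markers were present in every library, among them Sox9 of Sertoli cells (36.8 to 42.2 FPKM in Ppp6r3 cKO and 37.9 to 39.4 FPKM in WT) and Ddx4 of germ cells (43.96 to 50.2 FPKM in Ppp6r3 cKO and 52.2 to 53.9 FPKM in WT). Ppp6r3 cKO replicate 1 stood apart in GC content: its median deviation from the mean of all libraries was -0.112 (log2) among the genes poorest in GC and 0.126 among the richest, of 10 equal bins. Over all 17663 genes tested, the median log2 fold change was 0.003.

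Of the 10 genes, 5 rose in Ppp6r3 cKO testis, 5 did not pass and none fell. Trem2, Lyz2, Adgre1, Mrc1 and Csf1r rose, by factors of 1.28 to 1.86 on the log2(FPKM + 0.1) scale, while Cd68, Tyrobp, C1qa, C1qb and C1qc did not pass. A gene passed at an adjusted p under 0.05 in limma, with Benjamini-Hochberg adjustment over all genes tested. At an unadjusted p under 0.05, 7 of the 10 were higher and none lower, but the share of all genes at that threshold is not given here. By the adjusted rule 7.65% of all genes tested were called higher and 7.83% lower. The fold change was above 0 for all 10, with a median of 0.29, where 50.5% of all genes tested lay above 0. In 6 of the 10 all 3 Ppp6r3 cKO libraries lay above all 3 WT libraries, as they did in 18.8% of all genes tested. All 10 met the filter on low values in every library, with 47 fragments as the lowest count (Trem2 in WT replicate 3). Because whole tissue was measured, more macrophages, more RNA per macrophage, expression by other cells and changed shares of other cells cannot be told apart. All 15 endothelial markers (median log2 fold change 0.40) and all 12 stroma markers (0.28) also lay above 0. Medians were 0.09 for Leydig cell, 0.05 for Sertoli cell and -0.04 for germ cell markers.

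**Figure D1:**
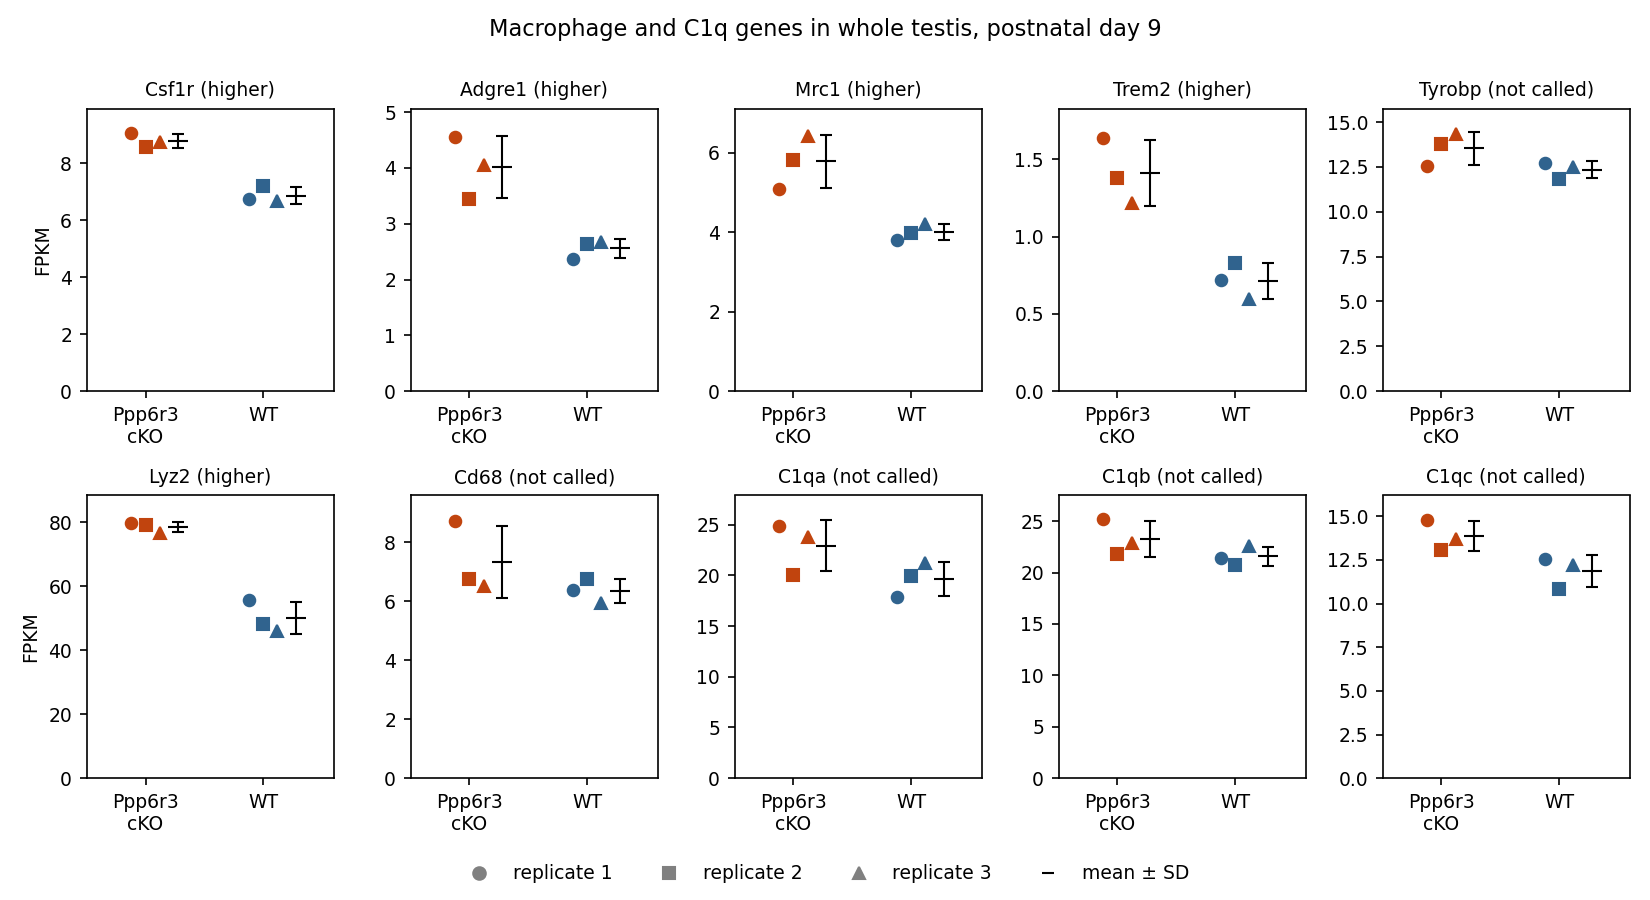
FPKM of the 10 genes (vertical axes, each starting at 0) in the 3 Ppp6r3 cKO libraries (left, red) and the 3 WT libraries (right, blue) of each panel; symbols mark the replicate number and black bars the mean ± SD (n = 3). The groups do not overlap for Csf1r, Adgre1, Mrc1, Trem2, Lyz2 and C1qc, and they overlap for Tyrobp, Cd68, C1qa and C1qb.

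Csf1r encodes the growth factor receptor on which macrophages depend (ENSMUSG00000024621, chromosome 18, 61100598 to 61132149, plus strand, mm10). It was at 9.07, 8.58 and 8.74 FPKM in Ppp6r3 cKO libraries, against 6.76, 7.19 and 6.67 FPKM in WT libraries. The groups did not overlap and both were tight, and Csf1r had the smallest change of the 5 genes that rose (log2 fold change 0.35, 95% confidence interval 0.23 to 0.48, limma adjusted p = 0.00567). Its 3' end overlaps Hmgxb3 on the other strand, where reads may be shared, since the sources used here do not state the strand setting of the counting.

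Adgre1 encodes F4/80, the adhesion receptor by which mouse macrophages are usually stained (ENSMUSG00000004730, chromosome 17, 57358691 to 57483527, plus strand). It was at 4.56, 3.44 and 4.06 FPKM in Ppp6r3 cKO libraries, against 2.36, 2.64 and 2.67 FPKM in WT libraries. All 3 Ppp6r3 cKO libraries lay above all 3 WT libraries, with the widest spread in the Ppp6r3 cKO group (log2 fold change 0.625, SE 0.115, limma adjusted p = 0.0107).

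Mrc1 encodes the mannose receptor CD206, abundant on tissue-resident macrophages of the interstitial kind (ENSMUSG00000026712, chromosome 2, 14229392 to 14332057, plus strand). It was at 5.09, 5.82 and 6.43 FPKM in Ppp6r3 cKO libraries, against 3.81, 3.98 and 4.21 FPKM in WT libraries. The groups were apart, and the Ppp6r3 cKO library closest to WT was replicate 1 (log2 fold change 0.515, SE 0.093, limma adjusted p = 0.0102). Mrc1 stood in the lowest of the 10 GC bins, where that library ran low across all genes. Whether GC content set the place of that library for Mrc1 was not tested.

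Trem2 and Tyrobp encode the receptor and the adaptor of a single signalling unit. Trem2 rose, and Tyrobp did not pass. Trem2 (ENSMUSG00000023992, chromosome 17, 48346401 to 48354147, plus strand) was at 1.64, 1.38 and 1.22 FPKM in Ppp6r3 cKO libraries, against 0.718, 0.829 and 0.595 FPKM in WT libraries. This rested on 133, 109 and 97 fragments in Ppp6r3 cKO and on 59, 68 and 47 fragments in WT, so counting error alone was 8.67% at the highest and 14.6% at the lowest of these counts. The groups were apart, and Trem2 had the highest fold change of the 10 genes (log2 fold change 0.89, 95% confidence interval 0.50 to 1.29, limma adjusted p = 0.0131). A pseudocount of 1, large beside these levels, gave 0.49 with the call kept. The length used for Trem2, 4946 bases, takes in a transcript with a retained intron, so its FPKM may understate its level relative to the other genes.

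Tyrobp (ENSMUSG00000030579, chromosome 7, 30413760 to 30417585, plus strand) was at 12.5, 13.8 and 14.3 FPKM in Ppp6r3 cKO libraries, against 12.7, 11.8 and 12.5 FPKM in WT libraries. Ppp6r3 cKO replicate 1 lay within the WT range, and the gene did not pass (log2 fold change 0.13, 95% confidence interval -0.01 to 0.27, limma adjusted p = 0.184). The FPKM ratio of Trem2 to Tyrobp was 0.131, 0.1 and 0.0849 in Ppp6r3 cKO libraries, against 0.0564, 0.07 and 0.0477 in WT libraries. The ratios of the groups did not overlap, a difference of 0.76 on the log2 scale. The exact permutation test over libraries, 2-sided, gave p = 0.1, which is the smallest that this test can give with 3 against 3 libraries, and 0.4 after adjustment over the 4 pairs compared. No model with more power was fitted to the ratio.

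Lyz2 encodes lysozyme M, the antibacterial enzyme of mouse macrophages, monocytes and neutrophils (ENSMUSG00000069516, chromosome 10, 117277331 to 117282321, minus strand). It was at 79.6, 79.1 and 76.7 FPKM in Ppp6r3 cKO libraries, against 55.6, 48.3 and 46.1 FPKM in WT libraries. It was the most abundant of the 10 genes in every library and had the smallest adjusted p of the 10 (log2 fold change 0.65, SE 0.066, limma adjusted p = 0.00108). The neighbouring copy Lyz1 could share reads with it but held only 3 or 4 fragments per Ppp6r3 cKO library and 1 to 7 per WT library.

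Cd68 encodes a glycoprotein of macrophage lysosomes (ENSMUSG00000018774, chromosome 11, 69664213 to 69666153, minus strand). It was at 8.74, 6.77 and 6.51 FPKM in Ppp6r3 cKO libraries, against 6.37, 6.76 and 5.93 FPKM in WT libraries. Ppp6r3 cKO replicate 1 was high and the other Ppp6r3 cKO libraries lay close to the WT values (log2 fold change 0.195, 95% confidence interval -0.06 to 0.45, limma adjusted p = 0.275). Without Ppp6r3 cKO replicate 1 the log2 fold change of Cd68 was 0.064.

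The C1q genes lie side by side on the minus strand of chromosome 4, from 136880129 to 136898803 (mm10), within 18675 bases. C1qa (ENSMUSG00000036887), which encodes chain A, was at 24.9, 20.1 and 23.8 FPKM in Ppp6r3 cKO libraries, against 17.8, 20.0 and 21.2 FPKM in WT libraries. C1qb (ENSMUSG00000036905), for chain B, was at 25.2, 21.8 and 22.8 FPKM in Ppp6r3 cKO libraries, against 21.4, 20.7 and 22.6 FPKM in WT libraries. C1qc (ENSMUSG00000036896), for chain C, was at 14.8, 13.1 and 13.7 FPKM in Ppp6r3 cKO libraries, against 12.6, 10.8 and 12.2 FPKM in WT libraries. In each of the 3 genes Ppp6r3 cKO replicate 1 was the highest library. Ppp6r3 cKO replicate 2 lay among the WT libraries for C1qa and C1qb, while for C1qc all 3 Ppp6r3 cKO libraries lay above all 3 WT libraries.

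None of the 3 passed. The log2 fold change was 0.22 for C1qa (95% confidence interval 0.01 to 0.43, limma adjusted p = 0.15) and 0.11 for C1qb (interval -0.03 to 0.25, limma adjusted p = 0.274). For C1qc it was 0.22 (interval 0.06 to 0.38, limma adjusted p = 0.069), and this gene passed after the GC and length correction (0.24, limma adjusted p = 0.0338) and with voom (0.225, adjusted p = 0.0489). These intervals reach to a 1.35-fold rise for C1qa, a 1.19-fold rise for C1qb and a 1.31-fold rise for C1qc, so a rise as large as that of Lyz2 (1.57-fold) lies outside each of them. The C1q genes are rich in GC (56.7% to 59.5% of bases, the 2 highest of the 10 GC bins), where the median deviation of Ppp6r3 cKO replicate 1 over all genes was 0.093 in bin 9 (C1qb and C1qc) and 0.126 in bin 10 (C1qa). After the GC and length correction the log2 fold change was 0.225 for C1qa, 0.135 for C1qb and 0.241 for C1qc. C1qa and C1qb still did not pass (limma adjusted p = 0.128 and 0.114). This correction fitted GC content and exon length together, so the part of GC content alone was not tested. Without Ppp6r3 cKO replicate 1 the log2 fold changes were 0.16 for C1qa, 0.05 for C1qb and 0.175 for C1qc, none of which passed. C1qa was called higher (0.31, limma adjusted p = 0.0426) without Ppp6r3 cKO replicate 2.

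Proportions among the chains were compared within each library. The size of each ratio depends on the exon lengths used, which were 1088 bases for C1qb and 1931 bases for C1qc. By fragments these 2 genes were alike, at 374 to 450 per library for C1qb and 347 to 468 for C1qc. The FPKM ratio of C1qa to C1qb was 0.986, 0.922 and 1.04 in Ppp6r3 cKO libraries, against 0.833, 0.965 and 0.939 in WT libraries (exact permutation test, 2-sided, p = 0.3). That of C1qb to C1qc was 1.71, 1.66 and 1.67 in Ppp6r3 cKO libraries, against 1.7, 1.91 and 1.85 in WT libraries (exact permutation test, p = 0.2). C1qa to C1qc gave an exact permutation p of 1. The ratios of the groups overlapped in all 3 pairs, though a test that cannot go below 0.1 does not show that they were equal.

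**Figure D2:**
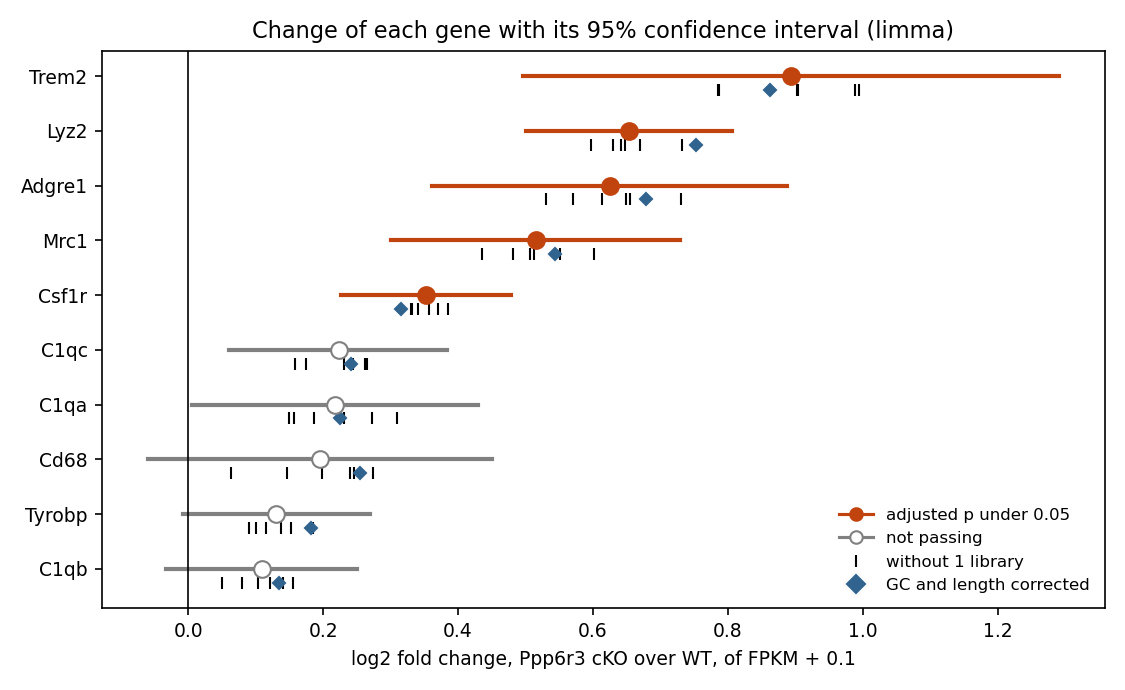
Log2 fold change of FPKM + 0.1, Ppp6r3 cKO over WT (horizontal axis), for the 10 genes, with 95% confidence intervals from limma; filled points passed at an adjusted p under 0.05, black ticks give the value without each library in turn and blue diamonds the value after the GC and length correction. Trem2 stands highest at 0.89, the 5 genes that passed lie at 0.35 or above, and C1qb stands lowest at 0.11.

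By level the 10 genes fell into the same order in both groups, apart from C1qc and Tyrobp, which overlapped. Mean FPKM was 78.4 ± 1.57 for Lyz2 in Ppp6r3 cKO and 50.01 ± 5.0 in WT (SD, n = 3 each), and 1.41 ± 0.215 for Trem2 in Ppp6r3 cKO and 0.714 ± 0.117 in WT. C1qb and C1qa overlapped each other at the next level below Lyz2, with means of 23.3 and 22.9 FPKM in Ppp6r3 cKO and 21.6 and 19.7 FPKM in WT. C1qc and Tyrobp then overlapped each other, as did Csf1r and Cd68, and Mrc1, Adgre1 and Trem2 followed, each below all libraries of the gene before it. The genes that passed thus included both the highest and the lowest of the 10 by FPKM. This order depends on the exon length used for each gene, among them 1931 bases for C1qc and 4946 bases for Trem2. The length for Trem2 takes in a transcript with a retained intron, so its place as the lowest is uncertain. Of the 10 genes, 8 had their highest value in Ppp6r3 cKO replicate 1 and the other 2, Mrc1 and Tyrobp, in Ppp6r3 cKO replicate 3. How often each library was highest over all genes was not counted, so these numbers have no background. The 5 calls held without any single library.

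Sequence before the transcription start is shown to set genes that rose beside C1q genes that did not pass. RefSeq promoters on GRCm38.p6 (mm10) matched 6 of the 10 genes by symbol: Cd68, Lyz2, Mrc1, Trem2, C1qb and C1qc, and not Adgre1, Csf1r, Tyrobp or C1qa. The sequences were searched on both strands for AGGAAGT, a core bound by PU.1, the transcription factor of macrophages encoded by Spi1, and by other ETS factors. It was found in the 250 bases before the start of 4 of the 6 genes, namely Lyz2, Mrc1, C1qb and C1qc, and not of Cd68 or Trem2. Over all 32851 promoters the share that holds it in a window of that length is 7.69%. The motif was chosen with the sequences of these genes in view, so their count is no evidence of enrichment over that share. Below are the stretches of genes that passed (Lyz2, Mrc1, Trem2) and that did not (C1qb, C1qc), 5′ to 3′ on the strand of the gene and without bases inside the GENCODE gene; capitals mark the motif, seen here as ACTTCCT on the other strand.
Lyz2, chr10:117282322-117282522, minus strand: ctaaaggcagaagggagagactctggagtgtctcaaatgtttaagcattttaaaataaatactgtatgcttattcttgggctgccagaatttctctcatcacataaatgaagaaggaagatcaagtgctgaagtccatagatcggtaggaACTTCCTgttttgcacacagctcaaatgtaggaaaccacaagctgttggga
Mrc1, chr2:14229164-14229391, plus strand: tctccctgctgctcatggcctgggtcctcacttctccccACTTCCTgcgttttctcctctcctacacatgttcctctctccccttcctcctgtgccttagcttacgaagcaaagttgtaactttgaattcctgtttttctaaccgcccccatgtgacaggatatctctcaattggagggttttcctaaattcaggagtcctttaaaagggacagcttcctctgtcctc
Trem2, chr17:48346151-48346400, plus strand: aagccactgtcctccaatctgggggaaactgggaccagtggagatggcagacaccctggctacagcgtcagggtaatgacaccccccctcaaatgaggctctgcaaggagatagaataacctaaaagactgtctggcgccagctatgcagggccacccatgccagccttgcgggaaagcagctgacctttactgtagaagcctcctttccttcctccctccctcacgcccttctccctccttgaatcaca
C1qb, chr4:136886201-136886450, minus strand: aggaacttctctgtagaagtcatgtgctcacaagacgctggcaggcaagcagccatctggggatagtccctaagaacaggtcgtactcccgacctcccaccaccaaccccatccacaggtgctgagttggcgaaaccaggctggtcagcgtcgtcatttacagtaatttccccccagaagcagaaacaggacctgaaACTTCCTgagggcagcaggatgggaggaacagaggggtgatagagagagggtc
C1qc, chr4:136893066-136893164, minus strand: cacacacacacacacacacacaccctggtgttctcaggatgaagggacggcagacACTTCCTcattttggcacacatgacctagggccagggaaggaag

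The motif thus stood before genes that rose (Lyz2 and Mrc1) and before genes that did not pass (C1qb and C1qc), and was not found before Trem2, which had the highest fold change. Each match is a description of these letters and not a binding site. Spi1 itself was at 1.70, 1.83 and 1.72 FPKM in Ppp6r3 cKO libraries, against 1.43, 1.45 and 1.35 FPKM in WT libraries. Its groups did not overlap but it did not pass (log2 fold change 0.29, limma adjusted p = 0.109).

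Of 30 other macrophage genes, all tested, 5 rose, 25 did not pass and none fell, and their median log2 fold change was 0.28 against 0.003 over all genes tested, and 28 of the 30 lay above 0. Those that rose most were Ms4a7, a membrane protein of resident macrophages (0.85), C3ar1, the receptor for the complement fragment C3a (0.62), and the myeloid transcription factor Irf8 (0.48). Ctss, a lysosomal protease of antigen-presenting cells (0.43), and the protease Lgmn (0.14) also rose. Lgmn was at 85.9 to 88.27 FPKM in Ppp6r3 cKO and 77.95 to 79.99 FPKM in WT, above Lyz2 in every library. Which cells of the testis Lgmn came from was not tested. C3ar1 was at 1.23, 1.29 and 1.31 FPKM in Ppp6r3 cKO libraries, against 0.909, 0.756 and 0.742 FPKM in WT libraries, and the groups lay apart. Ptprc, the leukocyte antigen CD45, had a low FPKM throughout, at 0.103 to 0.167 in Ppp6r3 cKO and 0.113 to 0.119 in WT (log2 fold change 0.18, limma adjusted p = 0.602). It held 31 to 49 fragments per library in Ppp6r3 cKO and 33 to 36 in WT, and its FPKM depends on the exon length used. Without WT replicate 2 or WT replicate 3 only 2 of these genes passed, without Ppp6r3 cKO replicate 3 or WT replicate 1 it was 3, and with voom 9.

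Of 11 genes of long-lived resident macrophages, 10 were tested, of which 4 rose, 6 did not pass and none fell (median log2 fold change 0.18). Fcrls rose by 0.46, the platelet factor gene Pf4, also made by resident macrophages, by 0.40, and the transglutaminase gene F13a1 by 0.37. The scavenger receptor gene Stab1, which endothelial cells also express, rose by 0.35. Timd4, a receptor for dying cells, was lower in every Ppp6r3 cKO library, at 0.309, 0.259 and 0.2 FPKM, against 0.36, 0.472 and 0.692 FPKM in WT libraries, and did not pass (log2 fold change -0.75, limma adjusted p = 0.0754). Without WT replicate 2 only 1 of the 10 genes passed.

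The 7 genes of MHC class II antigen presentation did not move together, since 1 rose, 2 fell and 4 missed the threshold (median 0.10). H2-Eb1 was at 4.79, 4.70 and 4.82 FPKM in Ppp6r3 cKO libraries, against 3.36, 3.77 and 3.91 FPKM in WT libraries, and rose by 0.37. H2-Ab1 was at 4.25, 3.25 and 4.62 FPKM in Ppp6r3 cKO libraries, against 5.67, 5.38 and 5.66 FPKM in WT libraries, and fell by 0.47 on the log2 scale. H2-DMa, which helps load peptides, fell by 0.52. In each of these 3 genes the groups lay apart. None was called higher without WT replicate 1 and 2 without WT replicate 3, and 1 was called lower without Ppp6r3 cKO replicate 1 or any single WT library. These genes differ in sequence between mouse strains, and the strains of the groups are not given in the sources used here.

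Further along the complement pathway, 15 of 21 genes other than C1q were tested, of which 3 rose, 1 fell and 11 did not pass (median 0.17). C1ra and C1s1, which encode the proteases that join C1q in the C1 complex and are made largely by fibroblasts and other stromal cells, both rose. C1ra was at 22.4, 20.6 and 22.2 FPKM in Ppp6r3 cKO libraries, against 18.7, 16.1 and 15.9 FPKM in WT libraries (log2 fold change 0.37, limma adjusted p = 0.0119). C1s1 was at 39.8, 41.9 and 38.2 FPKM in Ppp6r3 cKO libraries, against 28.1, 29.2 and 31.7 FPKM in WT libraries (log2 fold change 0.43, limma adjusted p = 0.00305). The groups lay apart for both genes, as they did for C1qc. Both genes passed, while none of the C1q genes did. Whether the changes of the proteases and of C1q differ was not tested. Colec11, a collectin of the lectin pathway, rose by 0.495.

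The next components showed no common direction. C2, cleaved by C1s, had a log2 fold change of -0.12 (limma adjusted p = 0.293), and C3, the central component, had 0.29 (adjusted p = 0.125). C4a was at 0.501, 0.423 and 0.319 FPKM in Ppp6r3 cKO libraries, against 0.902, 0.709 and 0.908 FPKM in WT libraries, and fell by 0.88 on the log2 scale (limma adjusted p = 0.0218). C4a did not pass without Ppp6r3 cKO replicate 3, WT replicate 1 or WT replicate 3. For C4b the log2 fold change was 0.495, which missed the threshold (adjusted p = 0.113). These are near-identical copies between which reads may be split, and their summed FPKM was 1.30, 1.56 and 1.30 in Ppp6r3 cKO libraries, against 1.46, 1.5 and 1.53 in WT libraries, so the sums overlapped. Of 19 complement receptors and regulators, 13 were tested, none rose, 1 fell and 12 did not pass (median 0.06). The gene that fell was Calr (-0.38), which encodes calreticulin, a chaperone of the endoplasmic reticulum that also binds C1q. Serping1, the inhibitor of C1r and C1s, had a log2 fold change of 0.08 (limma adjusted p = 0.282). At an unadjusted p under 0.05, 3 of the 13 receptors and regulators were higher and 2 lower, again without the share of all genes. Limma called 1 higher and 2 lower with voom, 2 higher and 2 lower after the GC and length correction, and 1 higher and 1 lower with quantile normalization.

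**Figure D3:**
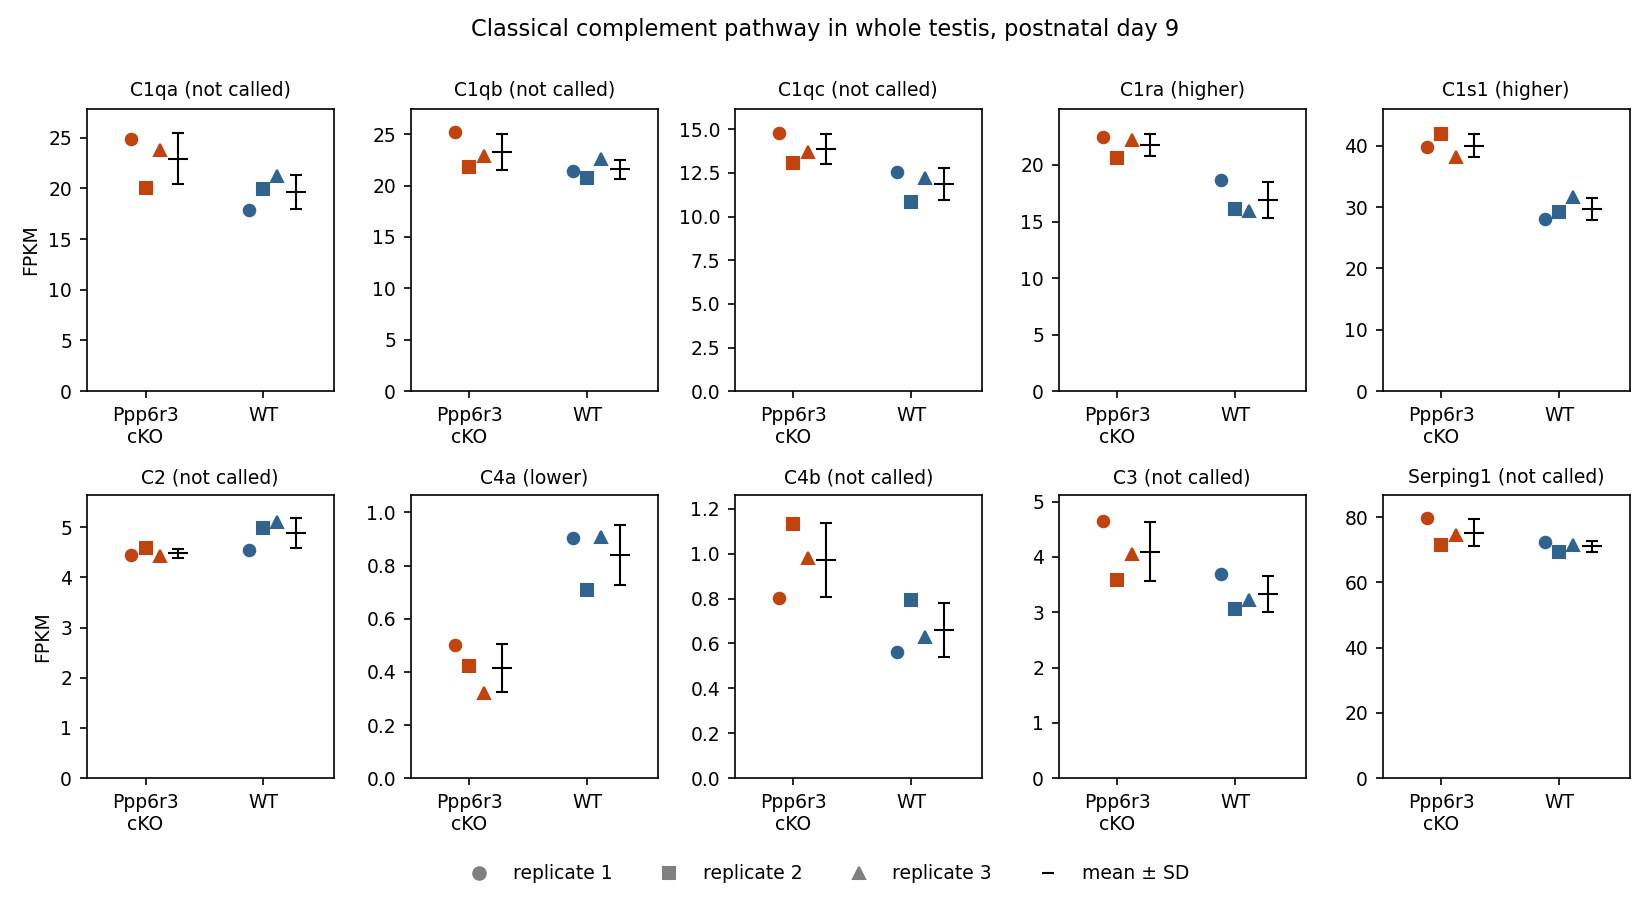
FPKM of the C1q chains, the C1 proteases, C2, C4a, C4b, C3 and the C1 inhibitor Serping1 (vertical axes, each starting at 0) in the 3 Ppp6r3 cKO libraries (left, red) and the 3 WT libraries (right, blue), with the mean ± SD (black, n = 3). The groups lie apart and Ppp6r3 cKO is higher for C1ra, C1s1, C1qc and C4b, while C4a is lower in Ppp6r3 cKO.

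Around TREM2 and its adaptor, 12 of 19 partner and signalling genes were tested, of which 2 rose, 10 did not pass and none fell (median 0.10). Sirpa, an inhibitory receptor of myeloid cells, rose by 0.28 and the widely expressed kinase gene Fyn by 0.14. Syk, the kinase that DAP12 recruits, had a log2 fold change of 0.05 (limma adjusted p = 0.841), and Hcst, for the related adaptor DAP10, was not tested, at 0.0867 to 0.687 FPKM in Ppp6r3 cKO and 0.417 to 1.17 FPKM in WT. Leaving out any single library left 0 or 1 of the signalling genes called, 0 without WT replicate 1 or WT replicate 2. Among 19 lipid and phagocytosis genes often studied with TREM2, 18 were tested, of which 7 rose, 1 fell and 10 did not pass (median 0.15). The cholesterol exporters Abcg1 (0.33) and Abca1 (0.28) rose, as did the tetraspanin gene Cd9 (0.27) and the lipid carrier gene Apoe (0.21), and the lysosomal protease gene Ctsd fell by 0.135 on the log2 scale. Apoe was at 113.2, 110.2 and 106.1 FPKM in Ppp6r3 cKO libraries, against 94.5, 95.1 and 95.6 FPKM in WT libraries, well above every macrophage gene of the 10, and other cells of the testis also express it. Of the lipid genes 3 passed without Ppp6r3 cKO replicate 2, and 4 without Ppp6r3 cKO replicate 3 or WT replicate 2.

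Of 19 growth factors, chemokines and their receptors that support or recruit macrophages, 9 were tested, of which 5 rose, 4 did not pass and none fell (median 0.40). Csf1, which encodes the main ligand of CSF1R, was at 4.61, 4.40 and 4.20 FPKM in Ppp6r3 cKO libraries, against 2.90, 3.44 and 3.28 FPKM in WT libraries. The groups lay apart (log2 fold change 0.45, limma adjusted p = 0.0132), as they did for the receptor Csf1r. Il34, the other ligand, had a log2 fold change of 0.27 and did not pass (adjusted p = 0.548). Csf2rb, a shared receptor chain for myeloid cytokines, rose by 0.63, the chemokine genes Cx3cl1 by 0.40 and Cxcl12 by 0.37, and Tgfb1 by 0.27. The monocyte-recruiting chemokine Ccl2 was not tested, with at most 0.214 FPKM in Ppp6r3 cKO and 0.212 FPKM in WT. Of 16 genes for the uptake of dying cells, 15 were tested, of which 5 rose, 10 did not pass and none fell (median 0.17): Lrp1 (0.37), Itgb3 (0.29), Tyro3 (0.28), Pros1 (0.26) and Dock1 (0.24). Without any single library other than Ppp6r3 cKO replicate 3, 3 of the growth factor and chemokine genes passed, and without any other than Ppp6r3 cKO replicate 1, 2 of the uptake genes. Mertk, the main uptake receptor of macrophages, which Sertoli cells also carry, had a log2 fold change of 0.01 (limma adjusted p = 0.96).

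Few markers of neutrophils, monocytes and lymphocytes met the filter on low values. Of 15 neutrophil and monocyte markers only 3 met the filter and none passed, at an unadjusted p under 0.05 or with voom either. Their summed FPKM was 7.84 to 10.2 in Ppp6r3 cKO and 8.81 to 10.01 in WT, with Plac8 at 5.33 to 8.18 FPKM in Ppp6r3 cKO and 4.68 to 7.004 FPKM in WT, and Ly6g and Ltf were listed at 0 in all 6 libraries. Of 16 lymphocyte markers 7 were tested and 1, the T cell receptor component gene Cd3e, fell (log2 fold change -1.11, on 17 to 31 fragments in Ppp6r3 cKO and 52 to 62 in WT), with a sum of 4.19 to 4.82 FPKM in Ppp6r3 cKO and 5.17 to 6.41 FPKM in WT. Of 12 mast cell and dendritic cell markers 7 were tested and 1 fell, Hdc (-0.30, not called without any single library), with a sum of 17.6 to 18.3 FPKM in Ppp6r3 cKO and 16.9 to 18.4 FPKM in WT. The dendritic cell marker Zbtb46, which endothelial cells also express, was at 8.44 to 8.77 FPKM in Ppp6r3 cKO and 8.02 to 8.58 FPKM in WT, a level above Mrc1 and Adgre1 in every library. The sum of the 10 macrophage and C1q genes was 173.8 to 186.1 FPKM in Ppp6r3 cKO and 133.1 to 140.2 FPKM in WT, of which Lyz2 was the largest part.

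Some markers of other interstitial cells also rose. Of 15 endothelial markers 8 rose and 7 did not pass (median 0.40), with a sum of 94.1 to 103.3 FPKM in Ppp6r3 cKO and 66.3 to 71.2 FPKM in WT. Tie1 (0.95), Vwf (0.87) and Cldn5 (0.83) rose most. Of 12 stroma markers 8 rose and 4 did not pass (median 0.28), with a sum of 643.4 to 666.0 FPKM in Ppp6r3 cKO and 532.5 to 547.1 FPKM in WT, led by Col5a1 (0.52), Pdgfrb (0.45) and Col1a2 (0.41). Leydig cell markers had a median of 0.09, with 2 of 9 higher, Dlk1 (0.48) and Hsd3b1 (0.25), and a sum of 345.2 to 358.5 FPKM in Ppp6r3 cKO and 306.2 to 319.9 FPKM in WT. Sertoli cell markers had a median of 0.05, with 2 of 10 higher, Amh (0.36) and Gata4 (0.23), and 1 lower, Rhox5 (-0.51). Without any single WT library 1 Sertoli gene was called higher and 0 lower. Their sum was 2785 to 2901 FPKM in Ppp6r3 cKO and 2791 to 2849 FPKM in WT. Of 10 germ cell markers 4 fell, 2 rose and 4 did not pass (median -0.04). Stra8 (-1.34), Sycp3 (-0.80) and Tex101 (-0.79) fell most, while Zbtb16 (0.50) and Dmrt1 (0.24) rose. The sum of the germ cell markers was 456.8 to 481.4 FPKM in Ppp6r3 cKO and 609.1 to 621.0 FPKM in WT. FPKM values are shares of a library, and the part that these other cell types have in the values of the macrophage genes was not tested.

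**Figure D4:**
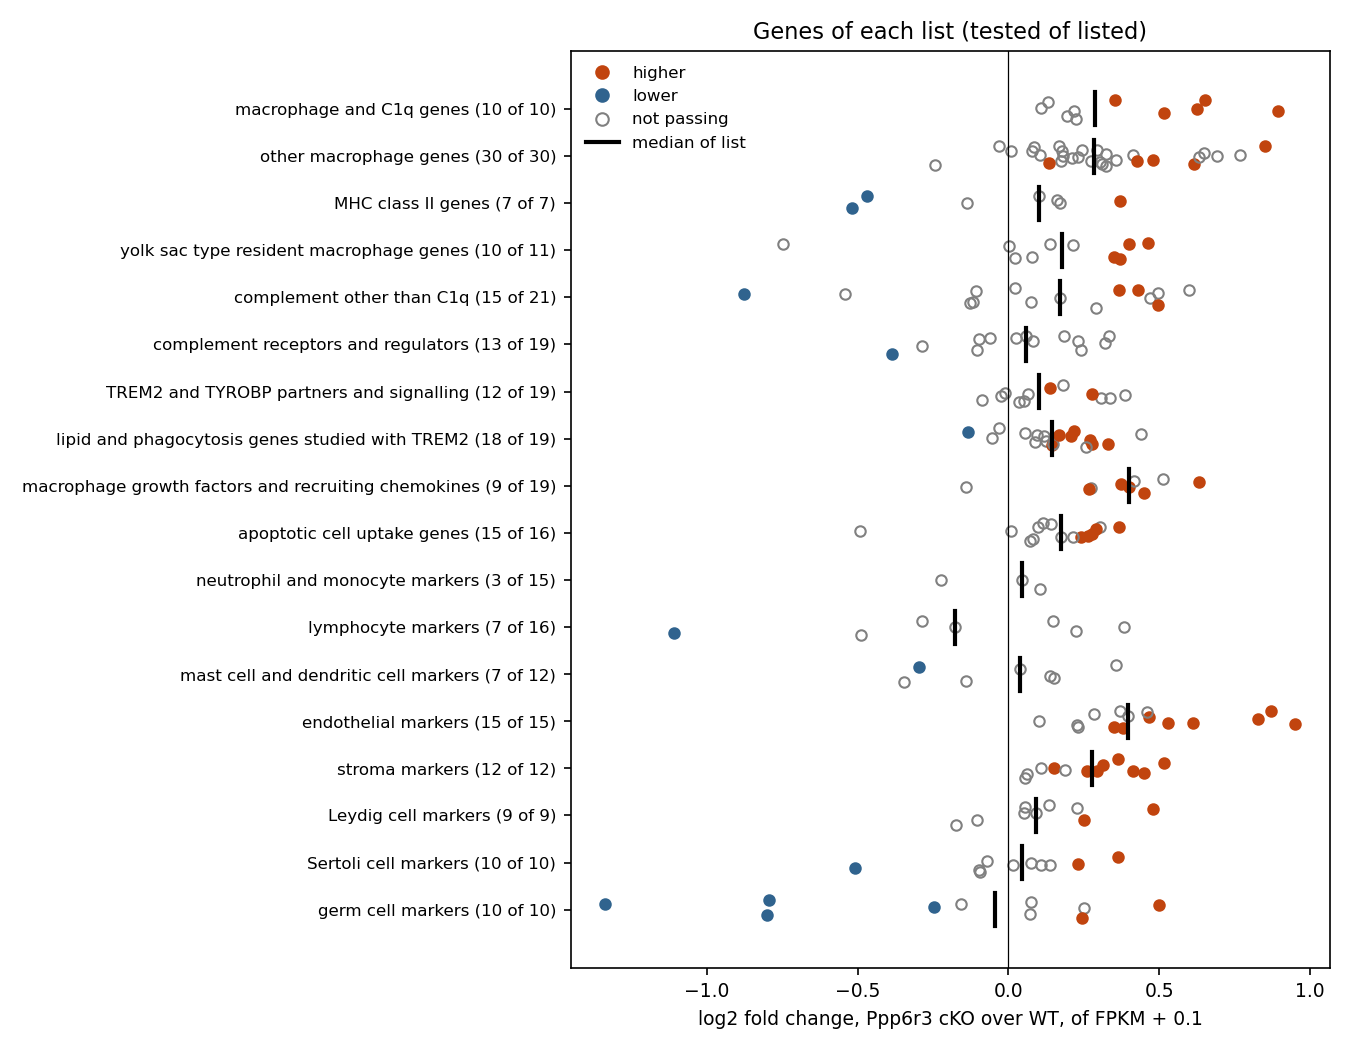
Log2 fold change of FPKM + 0.1, Ppp6r3 cKO over WT (horizontal axis), of each tested gene by list (rows, with the number tested of the number listed); red points rose, blue points fell, open points did not pass and black lines give the median of each list. The 10 macrophage and C1q genes (median 0.29) all lie above 0, as do all 15 endothelial and all 12 stroma markers, while germ cell markers run from -1.34 to 0.50.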

How the data were processed

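The deposited table holds FPKM computed by the authors, although it is named for counts. Per the series' design text, reads were aligned to mm10 with HISAT2 2.0.5. DESeq2 is also named in the submitters' processing notes. The counter, its strand setting and the annotation are not given in the sources used here. FPKM times GENCODE M21 exon length gave whole fragments (tolerance 0.01) in every library for 31625 of 32589 genes above 0 (97.0%), and 881 more with another length, Csf1r among them (4885 bases). Genes with at least 10 fragments in at least 3 libraries were tested: log2(FPKM + 0.1), limma 3.58.1 (R 4.3.3; trend, robust, 2-sided), adjusted by Benjamini-Hochberg over all genes. Fold changes on this scale understate the change of low genes. The members and lists were chosen with earlier results of these data known. Named were all members, up to 3 called genes a list with the largest change, 12 genes fixed by name, and others picked after their values were seen. Coordinates are GENCODE M21 on GRCm38 (mm10). On simulated data with 200 of 17663 genes changed, 68.7% of 1.5-fold, 83.6% of 2-fold and 95.5% of 4-fold changes were recovered, and 10 of 175 calls were false. The simulation gave every gene the same dispersion (0.00108) and no GC trend, so these rates need not hold for the data. Alternatives (pseudocount, filter, scaling, voom, replicate block, GC and length correction, each library left out) are described at the end. Counting errors cover counting only.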

Additional observations from a re-analysis of the deposited data

How the results depend on the processing

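In 16 alternative settings none of the 10 genes changed direction and none of the 5 calls was lost, and 5 or 6 of the 10 genes were called higher and none lower. Log2 fold changes ran from 0.60 to 0.75 for Lyz2, from 0.49 to 0.73 for Adgre1, from 0.435 to 0.60 for Mrc1, from 0.315 to 0.385 for Csf1r and from 0.49 (pseudocount of 1) to 0.99 for Trem2, with adjusted p of at most 0.0448. C1qc passed with voom, after the GC and length correction and with the replicate number as a block (0.223, adjusted p = 0.0358), and C1qa passed without Ppp6r3 cKO replicate 2. Tyrobp, Cd68 and C1qb passed in none. Same-numbered libraries did not deviate together (correlations 0.016, -0.007 and -0.006). Whether the numbers mark pairs is not given in the sources used here, and these correlations cannot exclude it. Of all genes, voom called 2104 higher and the replicate block 1092, and no filter on low values gave 740 higher and 768 lower. Leaving out 1 library gave 619 to 1143 higher and 645 to 1312 lower, lowest without WT replicate 2, with fewer samples tested. The cause of the differences between settings was not tested. Counts called higher ran from 3 to 5 of the growth factors and chemokines, 2 to 7 of the uptake genes, 3 to 9 of the lipid genes, 7 to 12 of the endothelial and 6 to 9 of the stroma markers. Trem2 is limited by depth, at 47 to 133 fragments.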
